A study of Mus musculus with 6 samples.

Results

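The genes described are the expressed mouse genes whose symbol is Zfp followed by a number, the name given in mice to a large and loosely defined set of zinc finger proteins. They were selected on their measured level: a protein-coding row of the deposited table with such a symbol was kept when its mean over the 6 libraries was at least 1 FPKM (fragments per kilobase of gene length, scaled to library size). Zfp36, Zfp36l1 and Zfp36l2, which encode CCCH-type proteins that bind AU-rich mRNA, were left out. The rule kept 122 of 391 such genes, out of 54532 genes in the table. Of the other 269 genes, 40 were at 0 in all 6 libraries. Because the mean covers both genotypes, a gene could enter through either one, and 5 of the 122 genes reached 1 FPKM in the wild type (WT) mean alone and 6 in the knockout mean alone. Just inside the limit were Zfp317, Zfp771 and Zfp414 with means of 1.03, 1.03 and 1.02 FPKM, and just outside it were Zfp553, Zfp945 and Zfp46 with 0.990, 0.989 and 0.981 FPKM.

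RNA was sequenced from 3 WT libraries (replicates 1, 2 and 3) and 3 libraries of progranulin knockout cells (PGRN KO, replicates 4, 5 and 6). The sample titles call the WT libraries control, a word absent from the knockout titles. Per the labels, the cells of both genotypes were C57BL/6J macrophages recruited from the peritoneal cavity, and all of them had met Candida albicans in culture for 6 hours, at a ratio of fungus to cells of 1, before RNA was taken. The text of the study speaks instead of macrophages grown from bone marrow, and a different dose of fungus is stated there for the sequenced samples, so neither the origin of the cells nor the ratio is settled here. Its methods also state that the knockout line was bought from a supplier other than the source of the WT mice, so genotype and colony cannot be told apart. The methods state that animals were matched for age and sex, without an age for the donors of these cells. No library of unchallenged cells was analysed, and nothing states that the replicates came from separate animals, so p-values measure the spread between these libraries.

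Most of these proteins carry C2H2 fingers, short folds in which a pair of cysteines and a pair of histidines hold a zinc ion and a helix reads a few bases of DNA. Fingers are often strung together, so that the row recognises a longer site. Many members also start with a KRAB box, which recruits the scaffold Trim28 and, through it, the histone methyltransferase Setdb1, heterochromatin protein 1, the NuRD remodeller and histone deacetylases, and this machinery is best known for silencing retrotransposons and guarding imprints. Other members have no DNA-binding role and act in RNA or protein handling.

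The finger unit is shown for 3 genes, namely the member that fell most, the member that rose most and the member of highest level with a run to show. A run was taken from the middle finger of the regular spacing, and only where that finger and its linker lay in 1 exon. Each run is the coding sequence of 1 finger and its linker to the next (28 codons, 84 bases, 5′ to 3′ on the coding strand), read from GENCODE transcripts of GRCm38. Capitals mark the codons of the 2 cysteines and 2 histidines.
Zfp558, chr9:18456597-18456680, minus strand: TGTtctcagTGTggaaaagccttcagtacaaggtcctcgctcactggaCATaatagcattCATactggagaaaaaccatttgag
Zfp710, chr7:80082391-80082474, plus strand: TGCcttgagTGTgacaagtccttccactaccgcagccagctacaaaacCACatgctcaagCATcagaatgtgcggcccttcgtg
Zfp655, chr5:145244420-145244503, plus strand: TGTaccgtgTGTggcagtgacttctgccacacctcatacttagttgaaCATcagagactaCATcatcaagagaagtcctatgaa
The cysteine and histidine codons sit at the same places in all 3 because the runs were chosen by that spacing. The stretch between them, which holds the helix that reads DNA, differs. Zfp558 had 8 fingers of this spacing, Zfp710 had 10 and Zfp655 had 6.

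Grn, which encodes progranulin, matched the genotype labels in every library. Its FPKM were 323, 337 and 325 in WT and 0.0166, 0 and 0.0167 in PGRN KO, or 56466 against 2 fragments in all, and the exact two-sided permutation test gave the smallest p that 3 against 3 libraries allow (p = 0.1). The libraries held 15996786 to 17551619 fragments in genes. The macrophage genes Lyz2, Cd68 and Adgre1 were the leading markers. The summed FPKM over 6 macrophage markers was 7082 to 7416 in WT and 7231 to 9715 in PGRN KO. Lyz2 made up most of this sum, at 5657 to 5851 FPKM in WT and 5873 to 8135 in PGRN KO. Csf1r (31 to 33.4 against 23.63 to 25.35) and Itgam (49.88 to 50.56 against 41.3 to 45.1) were lower in PGRN KO. Mertk was higher (1.144 to 1.559 against 2.909 to 3.835), while Cd68 and Adgre1 overlapped. The 5 markers of resident peritoneal macrophages summed to 19.7 to 23.8 and 19.7 to 24.0. Of these, Icam2 was higher (2.94 to 3.265 against 4.494 to 5.428), Timd4 was lower at under 1 FPKM, and the others overlapped. Sums differed between genotypes for 7 neutrophil markers (48.8 to 53.1 against 21.4 to 26.3, with Cxcr2, Elane and Ly6g at 0 throughout), 6 B cell markers (1.51 to 2.51 against 6.76 to 9.0), 5 mast cell markers (1.47 to 2.25 against 6.39 to 8.84), 6 T cell markers (2.32 to 2.73 against 3.66 to 5.13), 4 dendritic cell markers (1.84 to 2.27 against 1.10 to 1.44) and 5 fibroblast markers (0.864 to 0.877 against 1.86 to 3.43), while 4 mesothelial markers overlapped (0.254 to 0.319 against 0.119 to 0.330). Single genes carried some of these sums. S100a8 alone gave 48.3 to 52.8 FPKM of the neutrophil sum in WT and 21.2 to 25.6 in PGRN KO, whereas S100a9 and Camp overlapped between genotypes. Xcr1 led the dendritic cell sum (0.971 to 1.34 against 0.324 to 0.451) while Zbtb46 overlapped, and Tpsb2 led the mast cell sum (0.872 to 1.44 against 4.27 to 6.64) while Kit overlapped. The part of these other cells in the results on Zfp genes was not tested, and in bulk RNA fewer cells of a type and less RNA per cell cannot be told apart.

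PGRN KO 6 stood apart from the other libraries, and it did so with gene length. Across the 8882 genes with a mean of at least 1 FPKM, the difference of this library from the mean of PGRN KO 4 and 5 had a Spearman correlation of -0.55 with gene length (a description over genes of 1 set of libraries), and among the 122 Zfp genes the same correlation was -0.42. Gene length is the deposited length of the gene model, its median was 4787 bases for the Zfp genes (1275 to 15839) against 3856 for all tested genes. Results are therefore given with and without PGRN KO 6 and after a correction of every library for gene length.

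The Zfp genes were of low level. The median of their mean FPKM was 2.41, against 5.94 for all tested genes, 50 of them lay under 2 FPKM and 32 reached 5 FPKM. Behind the level of a Zfp gene stood 215 fragments per library at the median, with a range over the genes of 34 to 4119. Zfp703 stood far above the rest with a mean of 70.6 FPKM, followed on this per-length scale by Zfp106 (17.6 FPKM), Zfp598 (15.5 FPKM), Zfp131 (15.1 FPKM), Zfp655 (13.5 FPKM), Zfp281 (12.3 FPKM), Zfp143 (11.1 FPKM) and Zfp622 (11.0 FPKM). Of these 8 genes, only Zfp703 and Zfp655 passed the test between genotypes.

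Between genotypes, Zfp genes that changed were mostly lower in PGRN KO. With limma on log2(FPKM + 1) and a Benjamini-Hochberg adjusted p under 0.05, 24 of 122 Zfp genes (19.7%) passed, 21 of them lower (17.2%) and 3 higher (2.46%). The background over all 8882 tested genes was 24.2% called, 13.8% lower and 10.4% higher. These shares were not tested against each other. With the sum of fragments as library size instead of the scaling of the authors, 14 of 122 were called, 9 lower and 5 higher, against 1874 of all 8882 tested genes. Leaving out WT 1, 2 or 3 left 4, 7 or 10 calls of 122, against 713, 855 or 883 of 8882. The median log2 fold change, PGRN KO over WT, was -0.15 for the Zfp genes and -0.03 for all tested genes, and 83 of 122 Zfp genes had a value below 0. The lowest and highest values of the 2 genotypes did not overlap for 57 Zfp genes (46.7%, 45 lower and 12 higher), near the 48.8% of all tested genes. On this scale the fold change of genes near 1 FPKM is understated.

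**Figure D1:**
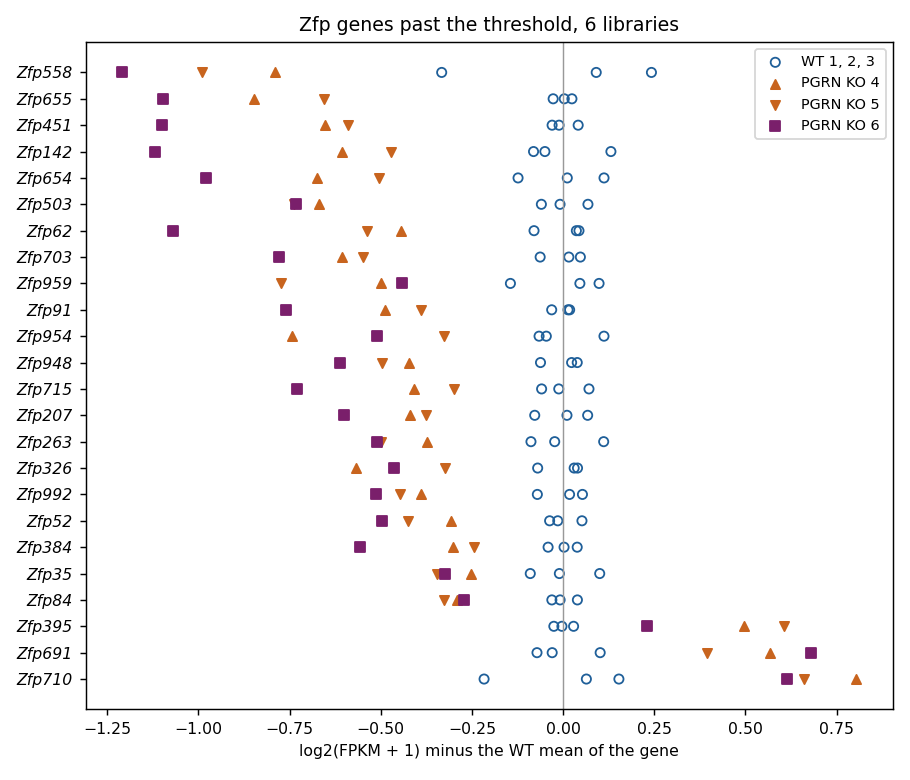
Each row is 1 of the 24 Zfp genes past the threshold, and the horizontal axis is log2(FPKM + 1) in a library minus the mean of the 3 WT libraries for that gene (open circles WT 1, 2 and 3, upward triangles PGRN KO 4, downward triangles PGRN KO 5, squares PGRN KO 6). In all 24 rows the 3 PGRN KO libraries lie on 1 side of the 3 WT libraries, to the left in 21 and to the right in 3, and PGRN KO 6 is often the farthest left.

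Among the genes that fell, Zfp703 and Zfp503 are the vertebrate NET family, transcriptional repressors that work through the corepressor Groucho. Neither coding sequence held a match to the C2H2 pattern used here. Zfp703 measured 87.2, 89.1 and 82.5 FPKM in WT and 56.3, 58.7 and 49.8 FPKM in PGRN KO. The groups were well apart, with means of 86.3 ± 3.41 and 54.9 ± 4.58 FPKM (SD, n = 3 each). On the log2 scale this was a change of -0.64 ± 0.10 (SE; limma, adjusted p = 0.00573). Zfp503, at a far lower level, measured 2.81, 3.16 and 2.94 FPKM in WT and 1.49, 1.38 and 1.39 FPKM in PGRN KO. Here PGRN KO 6 lay between the other 2 knockout libraries, and the log2 fold change was -0.71 ± 0.09 with an adjusted p of 0.00325, the smallest of any Zfp gene. Both NET genes passed in each of the 6 fits that left out 1 library.

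Zfp558, a KRAB zinc finger gene on chromosome 9 (18455575 to 18478268, GRCm38), had the largest drop. Its FPKM were 3.52, 4.02 and 2.37 in WT and 1.45, 1.14 and 0.835 in PGRN KO. WT itself was spread widely, and the log2 fold change was -0.996 ± 0.18 with an adjusted p of 0.0102. Zfp655, without a KRAB match, measured 17.98, 17.7 and 17.3 FPKM in WT and 9.37, 10.8 and 7.72 FPKM in PGRN KO. It combined a tight WT group with a log2 fold change of -0.87 ± 0.12 and an adjusted p of 0.00505. Zfp451, which encodes a SUMO ligase and has the longest gene model of all members (15839 bases), measured 5.39, 5.08 and 5.16 FPKM in WT and 2.95, 3.13 and 1.90 FPKM in PGRN KO. PGRN KO 6 was the lowest of these, and the log2 fold change of -0.78 ± 0.15 (adjusted p = 0.0117) became -0.62 (adjusted p = 0.00134) without that library.

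Apart from Zfp503, described above, the next 3 drops on the log2(FPKM + 1) scale had the same shape, with PGRN KO 6 lowest. Zfp142, the member with the most finger matches (37), measured 4.20, 3.49 and 3.59 FPKM in WT and 2.12, 2.42 and 1.19 FPKM in PGRN KO (a log2 change of -0.73 ± 0.18, adjusted p = 0.0262). Zfp654 measured 6.91, 7.48 and 6.20 FPKM in WT and 3.92, 4.53 and 2.98 FPKM in PGRN KO (a log2 change of -0.72 ± 0.14, adjusted p = 0.0131). Zfp62, with 26 finger matches, measured 13.2, 13.3 and 12.1 FPKM in WT and 9.18, 8.54 and 5.60 FPKM in PGRN KO (a log2 change of -0.68 ± 0.17, adjusted p = 0.0280). Even PGRN KO 4 and 5 were below every WT library for all 3 genes, and without PGRN KO 6 their log2 fold changes were -0.54, -0.59 and -0.49.

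Only 3 Zfp genes rose, all at low level. Zfp710 measured 1.55, 0.976 and 1.40 FPKM in WT and 3.01, 2.63 and 2.51 FPKM in PGRN KO. The group means were 1.31 ± 0.299 and 2.72 ± 0.259 FPKM, the log2 fold change was 0.69 ± 0.13 and the adjusted p was 0.0104. Zfp691 measured 1.67, 1.75 and 2.01 FPKM in WT and 3.15, 2.69 and 3.50 FPKM in PGRN KO, a log2 fold change of 0.55 ± 0.11 (adjusted p = 0.0146). Zfp395, whose human counterpart is a DNA-binding protein induced by low oxygen, measured 0.871, 0.843 and 0.913 FPKM in WT and 1.65, 1.85 and 1.198 FPKM in PGRN KO. It entered only through its knockout level, so its direction was partly set by the limit on the mean, and its log2 fold change was 0.44 ± 0.12 (adjusted p = 0.0379).

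The role groups that follow are to be read against the background of all tested genes (24.2% called, 13.8% lower and 10.4% higher, median log2 fold change -0.03), and none was tested against it. After length correction without PGRN KO 6 the median of all tested genes was 0.01. Members that act on RNA or protein had a median log2 fold change of -0.21, or -0.17 after length correction without PGRN KO 6. Of the 13 such genes measured, 12 had a value below 0, none rose and 4 fell. Besides Zfp451, these were Zfp91, a ubiquitin ligase of non-canonical NF-kB signalling, Zfp207, a spindle and kinetochore protein that binds Bub3, and Zfp326, a subunit of the DBIRD complex that links splicing to elongation. Zfp91 measured 12.7, 12.8 and 12.3 FPKM in WT and 8.71, 9.39 and 7.03 FPKM in PGRN KO (a log2 change of -0.55 ± 0.11, adjusted p = 0.0162). Zfp207 measured 10.7, 10.3 and 9.60 FPKM in WT and 7.35, 7.62 and 6.37 FPKM in PGRN KO (a log2 change of -0.47 ± 0.10, adjusted p = 0.0164). Zfp326 measured 2.21, 2.46 and 2.44 FPKM in WT and 1.27, 1.69 and 1.44 FPKM in PGRN KO (a log2 change of -0.45 ± 0.10, adjusted p = 0.0208). In each of the 3 the genotypes were apart, and the drop was also called without PGRN KO 6. Zfp598, the ubiquitin ligase that senses collided ribosomes, and Zfp106, an RNA-binding protein, did not pass (log2 fold changes -0.19 ± 0.10 and -0.15 ± 0.15, adjusted p = 0.179 and 0.496).

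Of 12 measured members listed as promoter-binding factors, 2 fell and 1 rose (median log2 fold change -0.15, or -0.0059 after length correction without PGRN KO 6). Those that fell were Zfp263, a SCAN-domain factor, and Zfp384, a DNA-binding factor with matrix gene targets, and the one that rose was Zfp691. Zfp263 measured 5.98, 5.67 and 6.66 FPKM in WT and 4.47, 4.02 and 3.98 FPKM in PGRN KO (a log2 change of -0.46 ± 0.09, adjusted p = 0.0158). Zfp384 measured 10.1, 9.83 and 9.51 FPKM in WT and 7.77, 8.14 and 6.35 FPKM in PGRN KO (a log2 change of -0.37 ± 0.11, adjusted p = 0.0458). Zfp384 had the smaller drop of these, and its call is close to the threshold. Zfp143, a general promoter activator, measured 11.3, 11.8 and 11.5 FPKM in WT and 10.8, 11.3 and 9.78 FPKM in PGRN KO and did not pass (adjusted p = 0.374). The BTB factor Zfp131 had a log2 fold change of -0.38 ± 0.13 and narrowly missed the threshold (adjusted p = 0.0685).

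Of 8 measured corepressor partners, the NET genes were the 2 that passed. The median log2 fold change of the 8 genes was -0.06, or 0.11 after length correction without PGRN KO 6. Of 6 genes listed as guards of imprints or repressors of retrotransposons or Igf2, 2 were members, Zfp445 and Zfp568, and neither passed. Zfp445 measured 6.85, 6.88 and 7.06 FPKM in WT and 7.94, 8.35 and 4.45 FPKM in PGRN KO, so PGRN KO 4 and 5 lay above WT and PGRN KO 6 below it. Without PGRN KO 6 it passed as higher (log2 fold change 0.21, adjusted p = 0.0301), and it did so with length correction as well (adjusted p = 0.0144). Zfp568 measured 2.45, 2.24 and 2.23 FPKM in WT and 1.59, 1.84 and 0.692 FPKM in PGRN KO (adjusted p = 0.0967). It passed as lower without PGRN KO 6 (log2 fold change -0.29, adjusted p = 0.0370), but not with length correction as well (adjusted p = 0.0648).

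The remaining called members were mostly KRAB genes. Zfp959, Zfp954, Zfp948, Zfp715, Zfp992, Zfp52 and Zfp84 had a KRAB match and Zfp35 did not, and their log2 fold changes ran from -0.57 (Zfp959) to -0.30 (Zfp84), with adjusted p of 0.0103 (Zfp948) to 0.0494 (Zfp35). Zfp959, whose mean was 1.49 FPKM in WT but 0.678 in PGRN KO, entered only through its WT level, so its direction was partly set by the limit on the mean. For Zfp959 and Zfp992 the reads are uncertain, since 32.5% and 48.3% of the 31-base words of their transcripts also occur in another gene, mainly Zfp119b and Zfp991. Across the family, 12 members shared at least 20% of their words in this way, 2 of which were called. Zfp91 and Zfp384 shared 9.89% and 11.3%.

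The 24 calls were kept when gene length was corrected for. A loess fit of each library against gene length was subtracted and the test repeated. All 24 genes were called again with the same sign, and 29 Zfp genes were called in all (7 higher, 22 lower), against a background of 31.6% (15.5% higher, 16.1% lower). The median log2 fold change of the Zfp genes moved from -0.15 to -0.09, while that of all tested genes moved to 0.01. The correlation of log2 fold change with gene length over the 122 Zfp genes was -0.15 (Spearman) as deposited and 0.12 after the correction. A correction for GC content and length together was chosen after seeing the data. It kept 22 of the 24 calls with 6 libraries, and all 24 without PGRN KO 6.

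**Figure D2:**
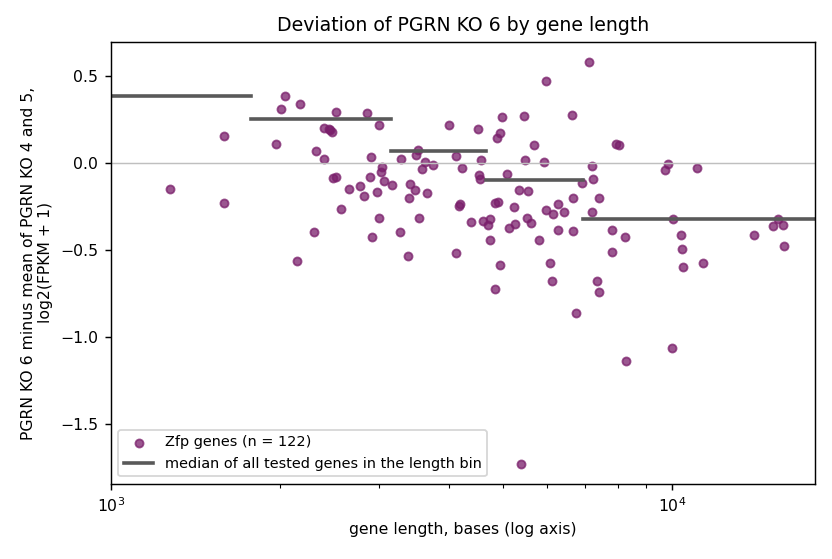
The horizontal axis is gene length in bases (log axis) and the vertical axis is log2(FPKM + 1) in PGRN KO 6 minus the mean of PGRN KO 4 and 5; points are the 122 Zfp genes and bars the medians of all tested genes in 5 length bins. The bars step down from 0.38 in the shortest bin to -0.32 in the longest, and most points in the 3 middle bins lie below the bar of their bin.

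PGRN KO 6 was lower for the Zfp genes than for all tested genes of like length. It was the lowest of the 6 libraries for 68 Zfp genes (55.7%), against 31.4% of all tested genes, and the highest for 17 (13.9%), against 34.3%. The summed FPKM of the Zfp genes was 593, 597 and 569 in WT, 502 and 505 in PGRN KO 4 and 5, and 418 in PGRN KO 6. Zfp703 alone gave 87.2, 89.1 and 82.5 FPKM of these sums in WT, and 56.3, 58.7 and 49.8 FPKM in PGRN KO 4, 5 and 6. The median deviation from the WT mean was 0.010, 0.0049 and -0.017 in the WT libraries, -0.076 and -0.072 in PGRN KO 4 and 5, and -0.27 in PGRN KO 6, on the log2(FPKM + 1) scale. All tested genes had a median of -0.040 in both PGRN KO 4 and PGRN KO 5 and of -0.0025 in PGRN KO 6. In the bin of 1777 to 3158 bases, the median of PGRN KO 6 minus PGRN KO 4 and 5 was 0.25 for all tested genes and -0.03 for the 29 Zfp genes, in the bin of 3159 to 4657 bases it was 0.07 and -0.11 (26 Zfp genes), and in the bin of 4657 to 6949 bases it was -0.10 and -0.27 (37 Zfp genes). In the longest bin, of 6950 to 41324 bases, the values were -0.32 and -0.36 (27 Zfp genes). Only 3 Zfp genes lay in the shortest bin.

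Single members show how far this library can carry a mean. Zfp871 measured 9.07, 9.82 and 7.65 FPKM in WT and 8.73, 9.13 and 1.99 FPKM in PGRN KO, and its log2 fold change of -0.56 ± 0.45 became 0.02 without PGRN KO 6. Zfp609 measured 12.5, 11.6 and 10.8 FPKM in WT and 11.4, 11.5 and 4.65 FPKM in PGRN KO, and -0.40 ± 0.30 became -0.02. Zfp281, which binds GC-rich promoters, measured 12.05, 12.6 and 11.6 FPKM in WT and 14.4, 13.8 and 9.07 FPKM in PGRN KO, and 0.01 ± 0.17 (adjusted p = 0.960) became 0.21 (adjusted p = 0.0319). The opposite was seen for Zfp622, a factor of 60S ribosome maturation, with 10.9, 12.4 and 11.9 FPKM in WT and 9.04, 8.27 and 13.4 FPKM in PGRN KO, whose log2 fold change went from -0.21 (adjusted p = 0.405) to -0.40 (adjusted p = 0.00851). Zfp871 and Zfp609 were picked after their values were seen.

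Without PGRN KO 6, 40 Zfp genes were called (10 higher, 30 lower), against a background of 41.3% (16.2% higher, 25.1% lower), and their median log2 fold change was -0.07 (all tested genes, -0.04). All 24 genes were among the 40. With the length correction as well, 36 were called (11 higher, 25 lower), against 40.9% (19.4% higher, 21.5% lower), the median was -0.03 (all tested genes, 0.01), 65 of 122 values were below 0, and again all 24 genes were called. The median of the whole family thus moved towards 0 without PGRN KO 6, whereas the 24 calls were kept without it. In this last fit the lower share, 20.5%, was close to the background and the higher share, 9.02%, was under it. Among the 32 Zfp genes with a mean of at least 5 FPKM, tested with the 4855 genes over that limit and all 6 libraries, 10 were called, all lower, against a background of 30.5% (10.9% higher, 19.6% lower).

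**Figure D3:**
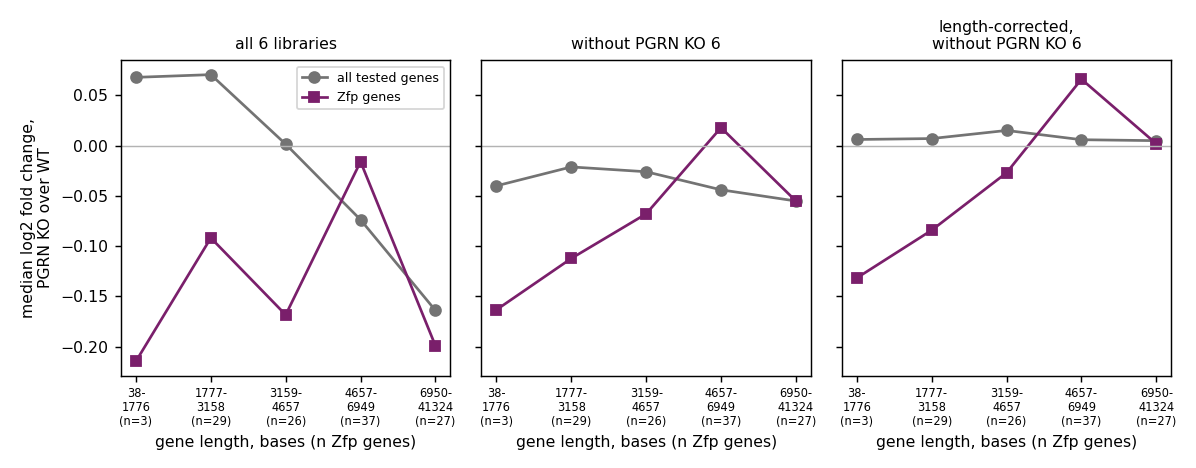
Median log2 fold change (PGRN KO over WT, vertical axis) in 5 bins of gene length in bases (horizontal axis, with the number of Zfp genes) for all tested genes (circles) and Zfp genes (squares), with all libraries, without PGRN KO 6, and length-corrected without PGRN KO 6. The slope of all tested genes, from 0.07 to -0.16 with all libraries, is nearly flat without PGRN KO 6, where the Zfp medians of the bins with 26 or more genes lie between -0.11 and 0.02.

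**Figure D4:**
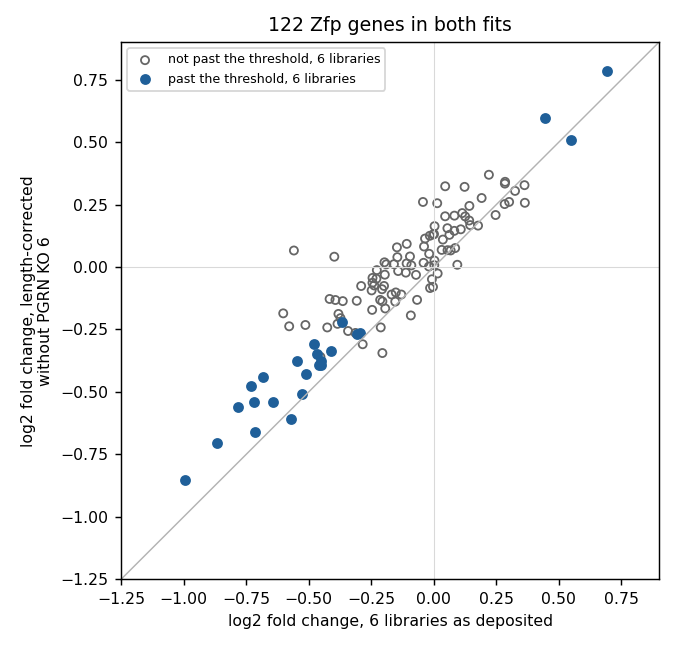
Each of the 122 Zfp genes by its log2 fold change with the 6 libraries as deposited (horizontal axis) and after length correction without PGRN KO 6 (vertical axis), with the line of equal values; filled points passed the threshold with 6 libraries. Most points lie above the line, and the 24 filled points keep their sign.

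Members with and without a KRAB box were both mostly below 0 with the 6 libraries as deposited, where the median of all tested genes was also below 0 (-0.03). A match to the core of the KRAB box was found in the coding sequence of 41 members, of which 8 were called, all lower, with 31 values below 0 and a median log2 fold change of -0.17. These calls and those of the 81 others were both under the background of 24.2%. The 81 others held 16 calls, 13 lower and 3 higher, 52 values below 0 and a median of -0.14. After length correction without PGRN KO 6 the medians were -0.07 and -0.02, and the difference between the groups was not tested. KRAB members had shorter gene models (median 3412 against 5530 bases) and lower levels (median 1.81 against 2.74 FPKM). The C2H2 finger pattern (2 to 4 residues between the cysteines, 12 to the first histidine, 3 to 5 between the histidines) matched in 117 members, with a median of 9 matches and a range of 0 to 37. Members with 10 or more matches had a median log2 fold change of -0.21 (53 genes, 9 called), those with 5 to 9 of -0.11 (41 genes, 10 called) and those with 1 to 4 of -0.01 (23 genes, 3 called), and these became -0.07, 0.0018 and 0.01 in the fit without PGRN KO 6 and with length correction.

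Zinc finger genes often lie in clusters, and several members did. On chromosome 17 (21008903 to 22377281, GRCm38), 8 KRAB members, from Zfp160 to Zfp758, had 7 values below 0 and a median log2 fold change of -0.23, and the neighbours Zfp52 and Zfp948 were called. Zfp52 measured 7.90, 8.03 and 8.46 FPKM in WT and 6.37, 5.79 and 5.47 FPKM in PGRN KO, and Zfp948 measured 4.78, 4.72 and 4.39 FPKM in WT and 3.20, 2.99 and 2.68 FPKM in PGRN KO. On chromosome 4 (146449023 to 147809788), 4 KRAB members all had values below 0 (median -0.26), and 1, Zfp992, was called. Of 6 members on chromosome 7 (29768552 to 30169750), 4 had values below 0 and Zfp84 was called, and of 4 members further along chromosome 7 (127244274 to 127885996), 2 were below 0 and none was called. After length correction without PGRN KO 6 the medians of these clusters, in the order given, were -0.13, -0.13, -0.10 and 0.02. Genes of a cluster can share sequence, so they are not independent, and no cluster was tested against the rest. On chromosome 4, Zfp993, Zfp991 and Zfp984 shared 91.9%, 88.0% and 68.8% of their 31-base words with another gene, so their reads are as uncertain as those of Zfp992.

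The machinery that KRAB proteins recruit was measured beside them. Of 20 listed genes, 15 were tested, 3 fell and 1 rose. Trim28, the scaffold, measured 14.2, 13.0 and 14.2 FPKM in WT and 12.4, 11.0 and 15.7 FPKM in PGRN KO and did not pass (log2 fold change -0.09 ± 0.13, adjusted p = 0.654). Setdb1, the H3K9 methyltransferase, measured 1.65, 1.76 and 1.78 FPKM in WT and 1.72, 1.85 and 1.10 FPKM in PGRN KO and did not pass either (log2 fold change -0.11 ± 0.13, adjusted p = 0.588). The direction of both values changed in some of the other fits. Its partner Atf7ip, which stabilises Setdb1 in the nucleus, measured 1.81, 1.75 and 1.80 FPKM in WT and 1.23, 1.21 and 0.745 FPKM in PGRN KO (a log2 change of -0.44 ± 0.12, adjusted p = 0.0390). Morc2a, an ATPase that works with the HUSH silencing complex, measured 3.20, 3.53 and 3.58 FPKM in WT and 1.80, 1.49 and 0.895 FPKM in PGRN KO. It had the largest change of the list, a log2 fold change of -0.91 ± 0.15 with an adjusted p of 0.00836. Chd4, the remodelling ATPase of NuRD, measured 48.5, 52.7 and 45.5 FPKM in WT and 37.4, 38.4 and 31.8 FPKM in PGRN KO (a log2 change of -0.44 ± 0.11, adjusted p = 0.0283). Zfp410, a member known to activate Chd4, measured 1.81, 1.78 and 1.80 FPKM in WT and 1.56, 2.02 and 1.73 FPKM in PGRN KO and did not pass (adjusted p = 0.904). Morc3, another ATPase of this class, rose, with 12.7, 12.8 and 11.8 FPKM in WT and 19.4, 17.8 and 15.7 FPKM in PGRN KO (a log2 change of 0.47 ± 0.10, adjusted p = 0.0189). The share, 4 of 15, is near the 24.2% of all tested genes, so nothing particular to the list is read from it. Without PGRN KO 6 all 4 were called again. With all 6 libraries and length correction Atf7ip, whose gene model of 20726 bases is longer than that of any Zfp member, lost its call. Its log2 fold change was then -0.18 (adjusted p = 0.234), while the other 3 kept their calls. The same correction called Cbx1 and Hdac1 as higher (log2 fold changes 0.30 and 0.28, adjusted p = 0.0364 and 0.0387). It gave 5 calls of 15, against a background of 31.6%. With PGRN KO 6 left out as well, 6 of 15 were called, against 40.9%, with Cbx1, Hdac1 and Atf7ip among them.

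Promoter sequence, from 250 bases before to 50 after the start in RefSeq (GRCm38.p6), was at hand for 99 of the 122 members and for 6413 tested genes, and was searched on both strands. The interferon-response-like spacing GAAA, any 2 bases, GAAA was found in 0 of the 99 promoters and in 4.27% of those of all tested genes. CCAAT was found in 50.5% against 41.8%, the E-box CACGTG in 7.07% against 12.6%, the AP-1 site TGANTCA in 5.05% against 6.50% and the CRE site TGACGTCA in 4.04% against 3.82%, and the NF-kB site in 2.02% against 0.577%. These are counts of letters in a window, and no match says nothing of whether a factor binds.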

How the data were processed

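FPKM of 6 RNA-seq libraries were analysed. The authors deposited FPKM per gene; the submitters' processing notes name CASAVA, HISAT2 2.0.5, featureCounts 1.5.0-p3, DESeq2 1.20.0 and mm10/GRCm38, and the methods of the study name other tools and versions. The library kit does not mark strand by its name, and no source used here gives the strand setting. FPKM times gene length gave whole fragments (tolerance 0.001) for 100% of values.

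Members and gene lists were chosen with earlier results of these data known. The 8882 genes at or over a mean of 1 FPKM were compared on log2(FPKM + 1) with limma 3.58.1 in R 4.3.3 (variance trend, no covariates, two-sided, Benjamini-Hochberg over all 8882 genes, threshold 0.05); the test was checked on simulated data. The length correction was a loess fit (span 0.5). Finger and KRAB patterns, shared 31-base words and coordinates came from GENCODE M21 (118 members with the same coordinates). Named genes were Grn, the 8 members of highest mean, up to 8 largest called changes in each direction, called members of the role lists, called corepressors, Trim28 and Setdb1, and members at the limit; others were named after their values were seen. Tables of proteins were not used here, so the sequences shown were chosen by finger spacing within 1 exon instead. Alternatives are in the closing section.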

Additional observations from a re-analysis of the deposited data

How the results depend on the processing

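All 24 called genes kept their sign under every alternative run, with the call kept in 336 combinations of gene and alternative and lost in 106. Against 24 called (3 higher, 21 lower), the number of Zfp genes called was 14 (2 and 12) with no filter on low values, 10 (0 and 10) with a mean of at least 5 FPKM, 9 (2 and 7) after rescaling to TPM, 14 (5 and 9) with the sum of fragments as library size and 44 (11 and 33) with sample quality weights, which gave PGRN KO 6 a weight of 0.0899; 7 rose after length correction, 11 after length correction without PGRN KO 6, and, in alternatives chosen after seeing the data, 5 (of 26) after correction for GC content and length and 10 (of 35) with that correction without PGRN KO 6. Leaving out 1 library gave 4 to 40 called (1 to 10 higher, 3 to 30 lower): 4, 7 and 10 without WT 1, 2 and 3, 17 and 19 without PGRN KO 4 and 5, and 40 without PGRN KO 6. The calls in all 6 such fits were Zfp503, Zfp655, Zfp703 and Zfp710. The median log2 fold change of the Zfp genes was -0.37 with a mean of at least 5 FPKM, -0.028 after length correction without PGRN KO 6, -0.023 after GC and length correction without it, and -0.175 to -0.074 when 1 library was left out. All tested genes called, 2151 of 8882, numbered 1366 of 22912 with no filter, 1482 of 4855 with a mean of at least 5 FPKM, 1530 after rescaling to TPM and 1874 with the sum of fragments. They numbered 4225 with quality weights, 2804 and 2960 in the length and the GC and length corrections, and 3633 and 3693 in the same without PGRN KO 6. Leaving out 1 library gave 713, 855 and 883 without WT 1, 2 and 3, 1390 and 1601 without PGRN KO 4 and 5, and 3668 without PGRN KO 6. Corepressor genes called, 4 in all, numbered 2 with no filter, with a mean of at least 5 FPKM and after rescaling to TPM, 8 with quality weights and 1 to 5 when 1 library was left out. After length correction 5 were called, as Atf7ip lost its call while Cbx1 and Hdac1 gained one as higher, and 6 were called with that correction without PGRN KO 6. Among the genes whose fold changes were followed under every alternative, values that reversed were those of Zfp106 (0.010 with quality weights, 0.027 after length correction and 0.023 with GC added, 0.079 and 0.075 for the same without PGRN KO 6, and -0.241 to 0.018 when 1 library was left out), Zfp281 (-0.100 to 0.209 when 1 library was left out, below 0 without WT 3, PGRN KO 4 or PGRN KO 5), Trim28 (0.003 with the sum of fragments, -0.222 to 0.017 when 1 library was left out, above 0 without PGRN KO 5) and Setdb1 (0.030 with quality weights, 0.002 after length correction, 0.083 and 0.080 for length and for GC and length correction without PGRN KO 6, and -0.192 to 0.029 when 1 library was left out), none of which was called in the test with 6 libraries. Members outside this list also changed sign, such as Zfp445 (-0.04 with 6 libraries, 0.21 without PGRN KO 6) and Zfp871 (-0.56 and 0.02). Of the 122 members, 83 were below 0 with 6 libraries and 65 after length correction without PGRN KO 6. The cause of these changes was not tested. No paired analysis was possible because no replicate number occurs in both genotypes. Depth limits the members at low level, and 50 of the 122 lay under 2 FPKM.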
